A study of Mus musculus with 18 samples.

Results

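The 8 genes of the cytosolic chaperonin CCT, also called TRiC, were followed in mouse liver: *Tcp1* (subunit alpha), *Cct2* (beta), *Cct3* (gamma), *Cct4* (delta), *Cct5* (epsilon), *Cct6a* (zeta), *Cct7* (eta) and *Cct8* (theta). They were taken by symbol, as a set chosen with earlier results of these data known, and all 8 of the 22524 genes counted in each mouse were found and tested. Liver RNA came from 18 female C57BL/6 mice aged 15 months, with 1 library per mouse. The 10 A226Y mice carried 1 *Rps2*-A226Y allele, which encodes a ribosomal protein of the small subunit with a change known to make decoding less accurate, and the 8 control mice (WT) were wild type for *Rps2*. The WT mice expressed CMV-Cre, a recombinase transgene active in all tissues, and the A226Y mice came from crosses with the same Cre line, which removes a stop cassette from the targeted allele. Excision was incomplete in every A226Y animal according to the study's methods, so these mice are mosaics of cells with the mutant allele and cells with a silenced allele. The targeted allele was made in 129/Sv embryonic stem cells and backcrossed to C57BL/6.

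CCT is a cylinder of stacked rings in the cytosol, each built from 1 copy of all 8 subunits in a fixed order. It binds newly made proteins inside its cavity and lets them fold in cycles of ATP binding and hydrolysis that open and close a built-in lid. Actin and tubulin are its best known substrates, and it also folds many proteins with WD40 propellers, such as G protein beta subunits. The subunits are separate genes on different chromosomes, and every ring needs all of them, which raises the question of whether their transcripts keep to fixed proportions from mouse to mouse and in the A226Y genotype.

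The 8 proteins are distant relatives. Translated from the GENCODE M21 transcripts, they ran from 532 to 556 residues, and the 28 pairs shared between 23.7% (CCT6A with CCT8) and 38.7% (CCT4 with CCT5) of aligned residues, with a median of 31.65%. GENCODE M21 annotates no coding sequence for *Cct6a*, whose transcripts it lists as non-coding, so its longest frame from a start to a stop codon was used. Each subunit has 1 copy of the nucleotide-binding motif of the chaperonin family, and the coding sequence around it shows what the members share and where they differ. The capitals mark the 4 codons of the motif in the mouse reference transcripts, given 5′ to 3′.
Tcp1: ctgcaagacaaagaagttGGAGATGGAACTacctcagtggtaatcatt
Cct2: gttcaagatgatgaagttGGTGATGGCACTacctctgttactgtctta
Cct3: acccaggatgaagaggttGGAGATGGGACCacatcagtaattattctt
Cct4: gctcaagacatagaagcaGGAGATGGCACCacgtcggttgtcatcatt
Cct5: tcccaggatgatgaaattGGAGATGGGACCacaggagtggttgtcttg
Cct6a: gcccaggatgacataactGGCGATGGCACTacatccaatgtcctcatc
Cct7: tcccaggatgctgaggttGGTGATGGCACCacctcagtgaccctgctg
Cct8: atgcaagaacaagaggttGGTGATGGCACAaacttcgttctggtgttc

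The genes are far enough apart for their reads to be told from each other. No stretch of 50 bases, the read length of the libraries, was shared between the transcripts of any pair of subunits. Stretches shared with other annotated genes made up 22.2% of the *Tcp1* transcript (*Acat2*, *Acat3* and a pseudogene), 16.8% of the longest *Cct6a* transcript (*Psph*), 8.28% of *Cct7*, 6.1% of *Cct8*, 2.13% of *Cct3* and 0.657% of *Cct4*. None was found in the *Cct2* and *Cct5* transcripts searched. The exons of *Tcp1* overlapped those of *Mrpl18* and *Acat3* on the opposite strand, and the same held for *Cct6a* with *Psph* (452 bases), *Cct7* with *Pradc1* (214 bases) and *Cct8* with *Usp16* (192 bases). The sources used here do not say that strand was used in counting, so the values of these 4 genes may include reads of their neighbours.

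RefSeq promoter windows on GRCm38.p6 were at hand for 7 of the 8 genes, in 9 windows, since *Cct2* and *Cct5* each have 2 annotated starts; *Cct4* was not among them. The 250 bases before each start were searched on both strands for heat shock elements (GAANNTTC or TTCNNGAA), the E-box CACGTG, the CCAAT box and the GC box GGGCGG. The GC box was in 8 of the 9 windows, against 32.7% of all 32851 promoter windows of the same length. The CCAAT box was in 4 windows (*Tcp1*, *Cct3*, *Cct6a* and *Cct7*), against 33.8% of all windows. GAANNTTC was in 1 window of *Cct2* and TTCNNGAA in 1 window of *Cct5*, against 6.69% and 7.17% of all windows, and none held CACGTG, against 6.02%. The windows of *Cct6a*, which differed between the genotypes, of *Cct2* and *Cct5*, which hold the heat shock element letters, and of *Cct8*, whose level followed that of *Cct5* most closely, are given from the distal end to the last base before the start. Capitals mark matches to the heat shock elements and the CCAAT box, and the *Cct8* window has none. The *Cct2* and *Cct6a* windows given lie within the annotated genes. The other *Cct2* window, before the outer start of the gene, has no heat shock element.
Cct6a, chr5:129787106-129787355, plus strand: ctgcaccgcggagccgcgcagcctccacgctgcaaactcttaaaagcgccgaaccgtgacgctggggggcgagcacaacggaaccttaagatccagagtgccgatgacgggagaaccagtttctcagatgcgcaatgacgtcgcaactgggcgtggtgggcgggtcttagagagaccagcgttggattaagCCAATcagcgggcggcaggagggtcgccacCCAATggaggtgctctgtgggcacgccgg
Cct2, chr10:117063376-117063625, minus strand: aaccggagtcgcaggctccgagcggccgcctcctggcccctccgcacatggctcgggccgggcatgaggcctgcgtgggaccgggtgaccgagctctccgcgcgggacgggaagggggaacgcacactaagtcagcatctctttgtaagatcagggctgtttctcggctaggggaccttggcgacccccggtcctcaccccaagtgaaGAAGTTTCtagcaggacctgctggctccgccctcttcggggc
Cct5, chr15:31601847-31602096, minus strand: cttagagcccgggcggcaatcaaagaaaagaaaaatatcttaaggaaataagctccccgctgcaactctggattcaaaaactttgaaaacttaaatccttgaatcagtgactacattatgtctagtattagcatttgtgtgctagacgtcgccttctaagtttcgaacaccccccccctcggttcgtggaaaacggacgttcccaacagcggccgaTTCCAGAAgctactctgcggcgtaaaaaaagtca
Cct8, chr16:87495870-87496119, minus strand: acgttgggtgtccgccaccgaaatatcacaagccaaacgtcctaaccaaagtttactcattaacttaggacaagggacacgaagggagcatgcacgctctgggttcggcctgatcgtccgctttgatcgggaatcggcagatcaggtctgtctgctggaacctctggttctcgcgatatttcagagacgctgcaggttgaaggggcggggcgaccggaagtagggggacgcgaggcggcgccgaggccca

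Total counts ran from 23850565 to 62126131 per mouse, and the lowest count of any CCT subunit in any mouse was 1808, so the spread between mice and not counting error set the precision. Levels are given as CPM, a gene's count relative to the total of its library, with the TMM scaling of edgeR between mice. *Rps2* itself ran from 46.9 to 83.0 CPM in the 10 A226Y mice and from 104 to 143 CPM in the 8 WT mice, without overlap, which matches the genotype labels of all 18 mice. All 7 matched hepatocyte markers were abundant, and they moved both ways: *Apob* and *Cps1* were called higher in A226Y mice (log2 fold changes 0.29 and 0.55), *Serpina1c* was called lower (−0.42), and *Alb*, *Apoa1*, *Ttr* and *Fgb* were not called (0.08, 0.09, −0.22 and −0.20). Their sum, most of it albumin, had a median of 125000 CPM in A226Y and 107000 CPM in WT mice. A library from each genotype stood apart from the others. A226Y mouse 29 had a chi-square per degree of freedom, over all genes, of 205 to 449 against the other A226Y mice, and WT mouse 33 of 130 to 194 against the other WT mice, where the median over pairs of 1 genotype was 54.7. The GC slope of mouse 29, the slope of a library's log2 levels (relative to the average library) on the log2 GC content of the transcripts, was 0.561, and that of the other 9 A226Y mice ran from −0.373 to −0.0521. Without mouse 29 the log2 fold changes of *Cct4* and *Cct6a* were −0.18 (adjusted p = 0.033) and 0.20 (adjusted p = 0.0305), and without WT mouse 33 they were −0.24 (adjusted p = 0.0399) and 0.18 (adjusted p = 0.0637). RNA of whole liver cannot tell fewer cells of a type from less RNA per cell.

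Of the 8 subunits, *Cct6a* was higher and *Cct4* was lower in A226Y liver, and the other 6 did not pass the test over all genes (edgeR quasi-likelihood test, adjusted p under 0.05). Over the 13353 genes tested, 7.27% were called higher and 7.03% lower (14.3% in either direction), so that 1 call in each direction among 8 genes is close to the background. An unadjusted p under 0.05 was reached by 4 of the 8 subunits and by 29.6% of all genes. The log2 fold change was above 0 for 7 of the 8 subunits and for 49.0% of all genes. Their median log2 fold change was 0.09, against −0.004 over all tested genes, whose quartiles were −0.15 and 0.13. With surrogate variables the median of the 8 was 0.02, and 5 of them were above 0. The ranges of the genotypes overlapped in all 8 subunits. The share of all tested genes with such overlap is not given here.

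**Figure D1:**
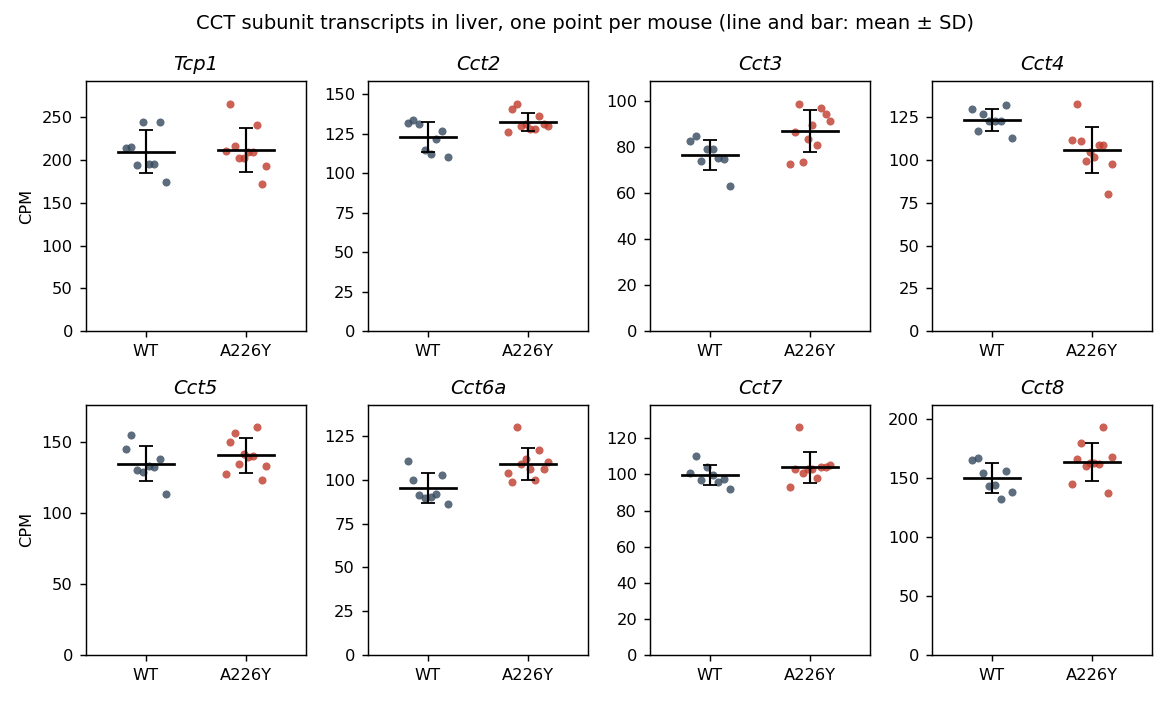
Level of each CCT subunit in CPM (vertical axis, from 0) in WT and A226Y liver, with 1 point per mouse, a line at the mean and a bar of 1 SD. For *Cct4*, 9 of 10 A226Y mice lie below every WT mouse and 1 lies above, and for *Cct6a* 5 of 8 WT mice lie below every A226Y mouse.

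*Cct4* encodes the delta subunit and is found on the plus strand of chromosome 11 in GRCm38 (22990519 to 23003780). Its level was 113 CPM at the lowest, 123 CPM at the median and 132 CPM at the highest in WT mice, and 80.5, 107 and 133 CPM in A226Y mice. Of the 10 A226Y mice, 9 lay below every WT mouse, and the remaining one, mouse 5, lay above every WT mouse. The means were 106 ± 13.2 CPM in A226Y mice and 123 ± 6.21 CPM in WT mice (SD, n = 10 and 8). The log2 fold change was −0.22 (SE 0.07, 0.858-fold, adjusted p = 0.0415, two-sided exact permutation p = 0.00288). The coefficient of variation was 12.4% among A226Y mice and 5.03% among WT mice.

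*Cct6a* encodes the zeta subunit and is found on the plus strand of chromosome 5 (129786998 to 129846371). The lowest, median and highest WT mice had 86, 91.9 and 111 CPM, and the corresponding A226Y mice had 99, 108 and 130 CPM. All 10 A226Y mice lay above the WT mean and 5 of the 8 WT mice lay below every A226Y mouse, but the ranges overlapped. The means were 109 ± 9.11 CPM and 95.4 ± 8.23 CPM (SD, n = 10 A226Y and 8 WT). The log2 fold change was 0.20 (SE 0.062, 1.15-fold, adjusted p = 0.038, exact permutation p = 0.00295). *Psph*, the neighbour whose exons overlap those of *Cct6a*, had a log2 fold change of 0.10 (adjusted p = 0.485). *Cct6b*, the paralogue that replaces the zeta subunit in testis, was low, with 0.634 ± 0.259 CPM in A226Y and 0.743 ± 0.245 CPM in WT mice (SD; log2 fold change −0.20, adjusted p = 0.64).

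Both calls stood close to the threshold. With 1 mouse left out, the log2 fold change of *Cct4* stayed between −0.26 and −0.18, with adjusted p from 0.0101 to 0.0704, and the call was lost for 12 of the 18 mice. It was lost without A226Y mouse 7, 11, 15, 18, 22 or 32 and without WT mouse 4, 13, 14, 21, 24 or 28. The log2 fold change of *Cct6a* stayed between 0.17 and 0.23, with adjusted p from 0.017 to 0.0711, and the call was lost for 10 of the 18 mice: A226Y mice 7, 11, 15, 23 and 32 and WT mice 13, 14, 21, 24 and 33. With 4 surrogate variables as covariates neither was called. The log2 fold change of *Cct4* was then −0.14 (adjusted p = 0.319) and that of *Cct6a* 0.04 (adjusted p = 0.789).

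*Cct2* (beta subunit) and *Cct3* (gamma subunit) had positive log2 fold changes that missed the threshold after adjustment. *Cct2* ran from 126 to 144 CPM in A226Y mice (median 131 CPM) and from 110 to 134 CPM in WT mice (median 124 CPM), and all 10 A226Y mice lay above the WT mean. Its log2 fold change was 0.11 (SE 0.052, adjusted p = 0.162, exact permutation p = 0.0155). *Cct3* ran from 72.7 to 98.9 CPM in A226Y mice (median 88.1 CPM) and from 63.2 to 84.8 CPM in WT mice (median 77.2 CPM), and 6 of the 10 A226Y mice lay above every WT mouse. Its log2 fold change was 0.18 (SE 0.069, adjusted p = 0.0839, exact permutation p = 0.0194). A correction for transcript length brought both past the threshold, with adjusted p = 0.0454 for *Cct2* and 0.024 for *Cct3*, and took *Cct4* out (log2 fold change −0.18, adjusted p = 0.113).

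The other 4 subunits had log2 fold changes between 0.02 and 0.13, none of them called. *Tcp1*, the alpha subunit and the gene for which the family was named, lies 11.8 megabases from *Rps2* on chromosome 17. It was at 212 ± 25.5 CPM in A226Y and 210 ± 25.4 CPM in WT mice (SD, n = 10 and 8), a log2 fold change of 0.02 with a 95% interval from −0.14 to 0.18 (adjusted p = 0.913). For *Cct5* the means were 140 ± 12.2 CPM and 135 ± 12.5 CPM, a log2 fold change of 0.06 with an interval from −0.07 to 0.19. For *Cct7* they were 104 ± 8.63 CPM and 99.7 ± 5.7 CPM, a log2 fold change of 0.06 with an interval from −0.05 to 0.17. *Cct8*, the theta subunit, was at 164 ± 15.9 CPM and 150 ± 12.7 CPM, a log2 fold change of 0.13 (SE 0.068, adjusted p = 0.211, exact permutation p = 0.0622). The upper bounds for *Tcp1*, *Cct5* and *Cct7* lay below the estimate for *Cct6a* and their lower bounds above that for *Cct4*. The interval of *Cct6a* itself (0.08 to 0.32) overlapped each of theirs, and that of *Cct4* (−0.36 to −0.08) overlapped that of *Tcp1*. No test between subunits was made from these intervals.

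**Figure D2:**
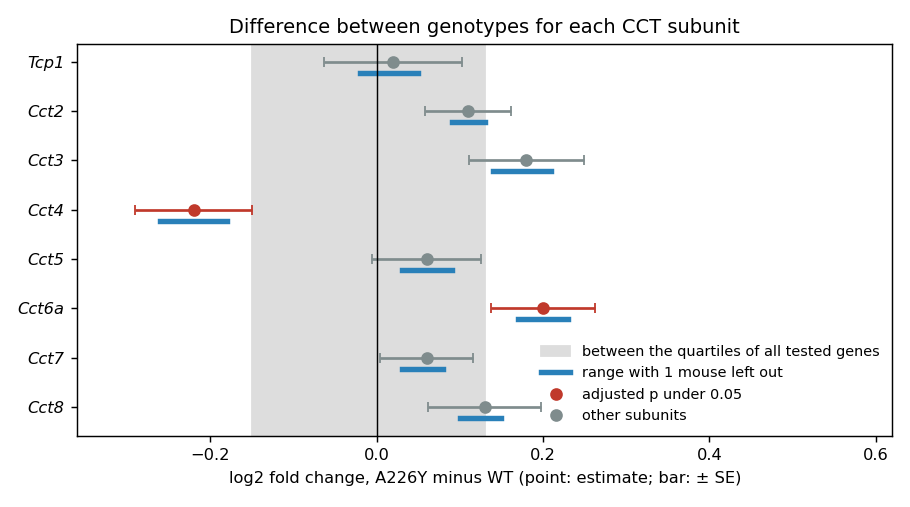
Log2 fold change of each subunit (horizontal axis, A226Y minus WT), with the estimate and its SE, the range over fits that leave out 1 mouse, and the span between the quartiles of all 13353 tested genes, from −0.15 to 0.13. *Cct4* at −0.22 and *Cct6a* at 0.20 are the 2 subunits with an adjusted p under 0.05.

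*Cct4* was also lower in A226Y mice relative to the other subunits of the same mouse. These proportions do not depend on how libraries are scaled to each other. Of the summed CPM of all 8 genes, *Cct4* made up 12.2 ± 0.668% in WT mice and 10.03 ± 0.919% in A226Y mice (SD, n = 8 and 10). Relative to the mean log2 level of the 8 subunits, *Cct4* ran from −0.16 to 0.09 in WT mice and from −0.52 to −0.02 in A226Y mice, so that 8 of the 10 A226Y mice lay below every WT mouse and 7 of the 8 WT mice lay above every A226Y mouse. The difference was −0.29 on the log2 scale (two-sided exact permutation p = 0.000274, 1 of 8 such tests, unadjusted). Leaving out each mouse in turn gave −0.32 to −0.27, with p from 0.000165 to 0.000668. The proportions were not computed with surrogate variables or with offsets for length or GC content.

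*Cct6a* moved the other way within the set, from 9.42 ± 0.444% of the sum in WT mice to 10.4 ± 0.766% in A226Y mice. The differences tested here are again those of the log2 level relative to the mean log2 level of the 8 subunits. For *Cct6a* this difference was 0.13 (exact permutation p = 0.00672). *Cct3* went from 7.57 ± 0.383% to 8.24 ± 0.81% of the sum. Its difference relative to the mean log2 level was 0.11 (exact permutation p = 0.0353), and this lost its p under 0.05 in 8 of the 18 leave-one-out fits. By the same measure *Tcp1*, *Cct2*, *Cct5*, *Cct7* and *Cct8* differed by −0.05, 0.05, −0.01, −0.01 and 0.06, with exact permutation p of 0.0834 or more. Since a proportion is relative, a lower *Cct4* raises the others in part.

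The ratio of *Cct4* to *Cct6a* CPM showed the 2 called genes together. It was 1.17 at the lowest, 1.33 at the median and 1.39 at the highest in WT mice, and 0.758, 0.935 and 1.34 in A226Y mice. Of the 10 A226Y mice, 9 lay below every WT mouse, the exception being mouse 5 again. The difference was −0.43 on the log2 scale (exact permutation p = 0.000389), for a pair that was picked after their values were seen.

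**Figure D3:**
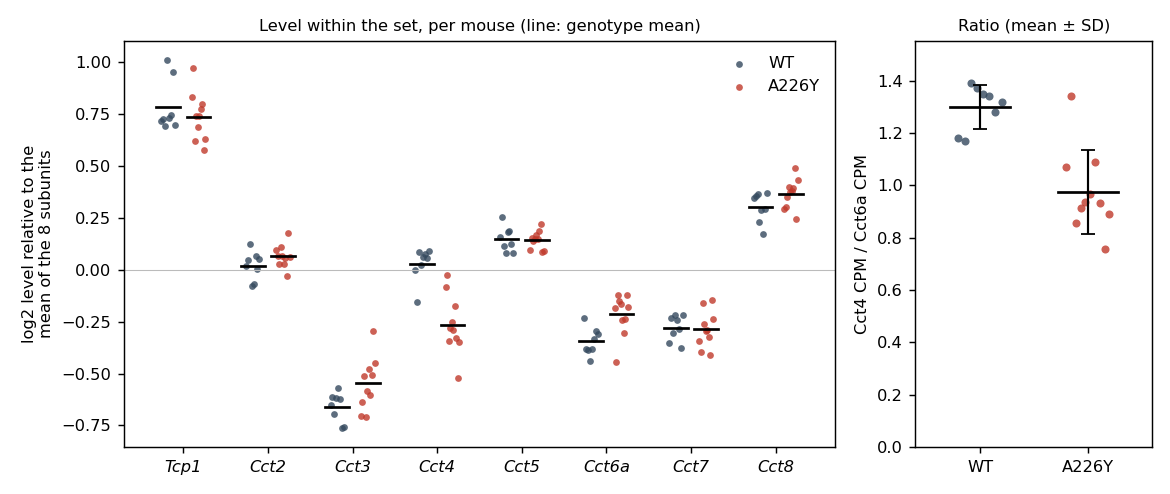
Left, log2 level of each subunit relative to the mean of all 8 in the same mouse, with 1 point per mouse and a line at the genotype mean. Right, the ratio of *Cct4* to *Cct6a* CPM (mean and SD), with a median of 1.33 in WT and 0.935 in A226Y mice.

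Libraries of the genotypes also differed in technical measures that touch these genes. The GC slope had a median of −0.185 in A226Y mice and 0.129 in WT mice. The slope on log2 transcript length had medians of 0.0198 and −0.0223. *Cct4*, with 45.1% GC, had r = −0.58 with the GC slope across mice after the genotype means were removed, and r = −0.13 without A226Y mouse 29, so that this relation rests on that library. With GC content fitted per library, the log2 fold change of *Cct4* was −0.27 (adjusted p = 0.0139) and that of *Cct6a* was 0.17 (adjusted p = 0.0576).

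The subunits rose and fell together from mouse to mouse. Correlations of log2 CPM were taken across all 18 mice after removing each genotype's mean. Of the 28 pairs, 26 had a positive Pearson r, and the median was 0.55. At least 0.5 was reached by 19 pairs, or 67.9%, against 5.66% of all 89144628 pairs of tested genes, whose quartiles were −0.22 and 0.22. The median of the pairs was 0.54 among A226Y mice alone and 0.56 among WT mice alone, and leaving out each mouse in turn gave 0.48 to 0.60. By permutation of mice within genotypes (100000 shuffles, two-sided, unadjusted over the 28 pairs), 19 pairs had p under 0.05 for Pearson's r and 17 for Spearman's rho. Pairs that share a subunit are not independent of each other.

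**Figure D4:**
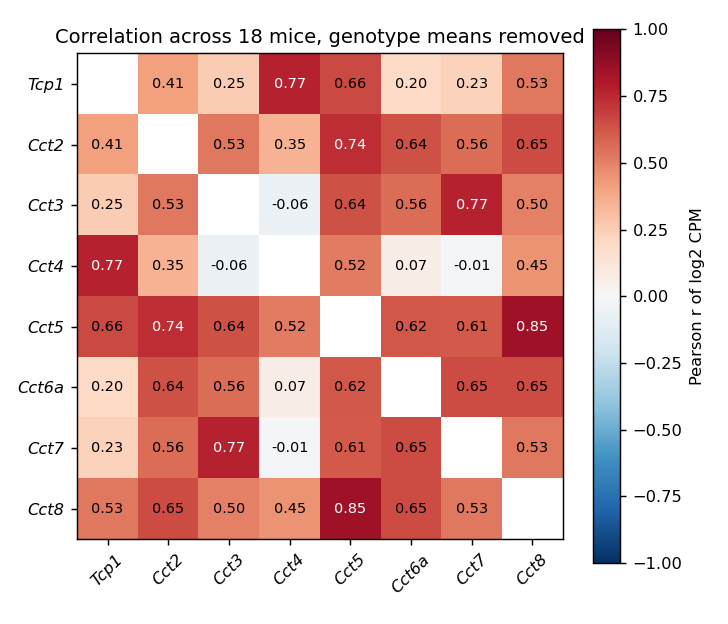
Pearson r between the log2 CPM of each pair of subunits across 18 mice, genotype means removed, on a colour scale from −1 to 1. *Cct5* has r of at least 0.52 with all 7 others, whereas *Cct4* has r of 0.07 or less with *Cct3*, *Cct6a* and *Cct7*.

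*Cct5* (epsilon) and *Cct8* (theta) were the closest pair, with r = 0.85 (permutation p = 1e-05, the smallest the shuffles can give) and rho = 0.80 (p = 0.00013). Their r was 0.92 among the A226Y mice and 0.76 among the WT mice, and 0.83 without WT mouse 33 and A226Y mouse 23. These mice lay farthest from the median of *Cct5* before the genotype means were removed. Ranked by r among 13352 other genes, *Cct5* was the 4th closest to *Cct8* and *Cct8* the 6th closest to *Cct5*. Other subunits had more genes ahead of their closest subunit, which ranked 23rd for *Tcp1*, 38th for *Cct2*, 111th for *Cct6a* and 176th for *Cct4*. *Cct5* was also the subunit that followed the mean of all 8 most closely (r = 0.95, with itself in the mean).

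*Cct3* (gamma) and *Cct7* (eta) formed another close pair, with r = 0.77 (permutation p = 3e-05) and rho = 0.87 (p = 1e-05), and r = 0.76 without WT mouse 33 and A226Y mouse 7. *Cct7* was the 11th closest gene to *Cct3*, and *Cct3* the 12th closest to *Cct7*. *Cct2* (beta) was closest to *Cct5* among the subunits, with r = 0.74 (permutation p = 0.00029), rho = 0.71 (p = 0.00132) and r = 0.72 without WT mice 21 and 33. *Cct6a* was closest to *Cct7* (r = 0.65, permutation p = 0.0078; rho = 0.57, p = 0.0208), but r was 0.29 without A226Y mouse 7 and WT mouse 33, so that this relation rests on those mice. With *Cct8* the r of *Cct6a* was also 0.65 (permutation p = 0.00538; rho = 0.65, p = 0.00597), and it was 0.58 without the same mice. With *Cct2* it was 0.64 (permutation p = 0.00565; rho = 0.68, p = 0.00508).

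*Cct4* followed *Tcp1* and few of the others. Its r with *Tcp1* was 0.77 (permutation p = 0.00033; rho = 0.74, p = 0.00075), with 0.92 among the A226Y mice and 0.55 among the WT mice. Without A226Y mice 5 and 29, the highest and the lowest for both genes among A226Y mice, r was 0.57. With *Cct3* its r was −0.06 (permutation p = 0.847; rho = −0.03, p = 0.917), with *Cct7* −0.01 (p = 0.98; rho = −0.10, p = 0.699) and with *Cct6a* 0.07 (p = 0.771; rho = 0.12, p = 0.631). Among WT mice alone r was 0.36 with *Cct3* and 0.60 with *Cct6a*, and among A226Y mice alone −0.17 and −0.09; the difference between the genotypes was not tested. The r of *Cct4* with *Cct6a* was 0.41 without A226Y mice 5 and 29. Its r with *Cct7* was 0.06 without them. The r of *Cct4* with *Cct3* was −0.29 without WT mouse 33 and A226Y mouse 7, and between −0.20 and 0.16 with 1 mouse left out. The median r of *Cct4* with the other 7 was 0.35, the lowest of the 8.

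**Figure D5:**
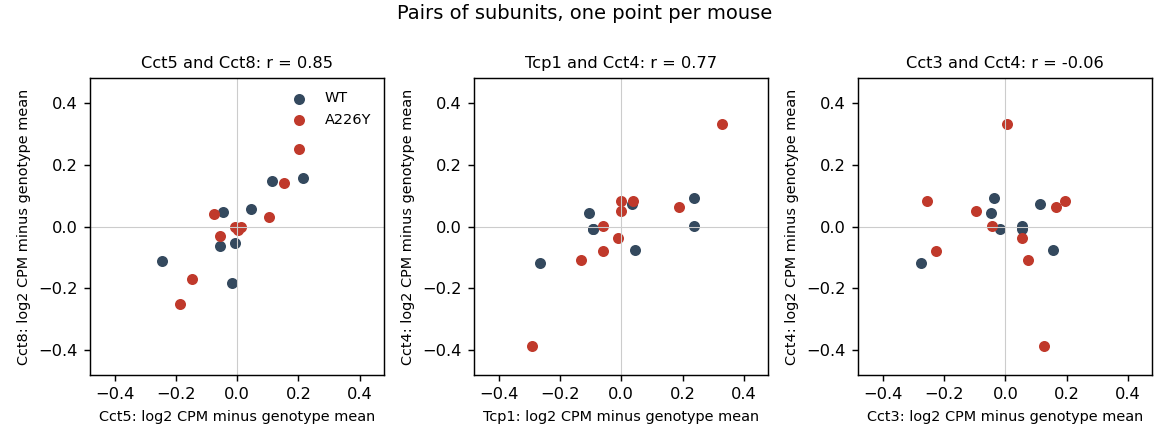
Log2 CPM of a pair of subunits in each mouse, with the genotype mean subtracted, for *Cct5* and *Cct8* (r = 0.85), *Tcp1* and *Cct4* (r = 0.77) and *Cct3* and *Cct4* (r = −0.06). A226Y mice 5 and 29 lie at the upper and lower ends for *Cct4*.

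The mean of the 8 subunits had r between −0.26 and 0.25 with total count, the TMM factor, the percentage of counts in the 50 most abundant genes and the slopes on length and GC content. Single subunits had larger values of either sign. *Cct3* had r = −0.50 with the length slope and 0.38 with the GC slope, and *Cct8* had 0.43 with total count and −0.48 with the GC slope. Without A226Y mouse 29 the values with the GC slope were 0.32 and −0.18. Given as a description, the r of the mean of the 8 with summed cell type markers was −0.57 for the 6 B and plasma cell markers and −0.51 for the 6 T and NK cell markers. It was −0.47 for the 6 Kupffer cell markers and 0.18 for the hepatocyte markers. Kupffer markers summed to 221 to 920 CPM in A226Y mice (median 303 CPM) and 331 to 673 CPM in WT mice (median 491 CPM), and 1 of the 6, *Clec4f*, was called lower, while *Marco* had a log2 fold change of 0.83 (adjusted p = 0.294). Of the 6 stellate cell markers, *Col1a1* and *Col3a1* were called lower (log2 fold changes −0.77 and −0.60), and *Dcn*, *Des*, *Reln* and *Lrat* were not called (0.18, 0.06, 0.00 and −0.17). The stellate markers summed to a median of 340 CPM in A226Y and 308 CPM in WT mice. Of all tested genes 7.03% were called lower. The part of these markers in the correlations between subunits was not tested.

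Among 11933 genes averaging 1 CPM or more, the 10 whose level was most like the mean of the 8 subunits were *Psma6*, *Psmd2*, *Atp6v1h*, *Eif2b5*, *Acadvl*, *C1galt1c1*, *Grtp1*, *Hint1*, *Dvl2* and *Psma3*. Their r across the 18 mice, genotype means removed, lay between 0.82 and 0.87, and Spearman's rho between 0.76 and 0.91. *Psma6* and *Psma3* encode alpha subunits of the 20S proteasome core and *Psmd2* a subunit of its regulatory particle. *Eif2b5* encodes the catalytic subunit of the exchange factor for eIF2. None of the 10 was called between the genotypes, where 14.3% of all tested genes were called. With 10 genes this says little about them.

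Per length, the order of the subunits depended on which length was used. Per kilobase of all annotated exons, *Cct8* (51.0 ± 5.13 CPM), *Cct2* (50.1 ± 3.47 CPM) and *Cct5* (49.8 ± 4.45 CPM; SD over 18 mice) could not be put in order, since *Cct8* was above *Cct2* in 13 mice and *Cct2* above *Cct5* in 9. *Tcp1* followed at 42.0 CPM, then *Cct6a* at 28.5 and *Cct4* at 27.1, and *Cct7* at 15.1 and *Cct3* at 12.9 CPM per kilobase. The order of *Cct4* and *Cct6a* differed by genotype: *Cct4* was above *Cct6a* in all 8 WT mice (means of 29.4 and 26.4 CPM per kilobase) and in A226Y mouse 5, and below it in the other 9 A226Y mice (means over the 10 of 25.2 and 30.2 CPM per kilobase). This is the ratio of the same genes again, on a scale per length. Per kilobase of the longest transcript, *Cct4* was above *Cct6a* in all 8 WT mice and in 3 of the 10 A226Y mice (A226Y means of 42.7 and 44.6 CPM per kilobase). Per kilobase of the longest transcript, *Tcp1* was first with 86.4 CPM and *Cct3* last with 41.6 CPM, and *Cct4*, *Cct6a*, *Cct7* and *Cct3* had overlapping ranges. The highest was 3.95 times the lowest by exons and 2.07 times by transcript.

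Of 16 tested genes for partners of CCT, none was called and 3 had an unadjusted p under 0.05, where 7.27% of all genes were called higher, 7.03% lower and 29.6% had such a p. With 16 genes these counts say little about the partners as a group. None of the 6 prefoldin subunits, which hand actin and tubulin to CCT, was called. The smallest p-values were those of *Pfdn4* (log2 fold change 0.29, adjusted p = 0.0701) and *Pfdn5* (−0.11, adjusted p = 0.19). None of the 3 tested phosducin-like proteins, cofactors that bind CCT with its substrate, was called, with *Pdcl3* (0.13, adjusted p = 0.0814) and *Txndc9* (0.11, adjusted p = 0.213) nearest. *Pdcl2* was at 0 in all mice. None of the 7 tubulin cofactors, which take tubulin on from CCT, was called, *Tbcc* (−0.21, adjusted p = 0.152) and *Tbce* (0.08, adjusted p = 0.369) being nearest.

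Among the substrates, 1 of 15 tested actin, actin-related and tubulin genes was called higher and none lower. This was *Tuba8*, an alpha-tubulin of low level here, with 6.99 ± 7.38 CPM in A226Y and 1.85 ± 1.06 CPM in WT mice (SD, n = 10 and 8; log2 fold change 1.91, SE 0.48, adjusted p = 0.013). Only 4 of the 10 A226Y mice were above every WT mouse. *Actb*, cytoplasmic beta-actin, was at 357 ± 60.2 CPM in A226Y and 357 ± 38.9 CPM in WT mice. Of 13 WD40 proteins and other substrates, *Ccne1* (cyclin E1) was higher (log2 fold change 0.82, SE 0.22, adjusted p = 0.0202) and *Hdac3* (a histone deacetylase) was lower (−0.20, SE 0.052, adjusted p = 0.015).

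Other chaperones gave 1 call. Of the 13 tested genes of the HSP70 and HSP90 machinery, which pass some substrates to CCT, *Hspb1*, a small heat shock protein kept in this list, was higher (9.13 ± 3.49 CPM against 4.77 ± 2.3 CPM, SD; log2 fold change 0.93, SE 0.28, adjusted p = 0.0316). *Hsf1*, the heat shock transcription factor, was at 12.8 ± 1.21 and 13.2 ± 1.34 CPM. Neither of the mitochondrial chaperonin genes was called (*Hspd1*, log2 fold change −0.01, adjusted p = 0.958; *Hspe1*, 0.02, adjusted p = 0.924), nor any of the 3 chaperonin-like genes *Mkks* (−0.03, adjusted p = 0.682), *Bbs10* and *Bbs12* (−0.35, adjusted p = 0.422). Over all 8 partner and substrate lists, 3 of 62 tested genes were called higher and 1 lower (6.45% called in either direction), against 14.3% in either direction among all tested genes, and 12 of the 62 had an unadjusted p under 0.05, against 29.6%. With surrogate variables as covariates no gene of these lists was called.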

How the data were processed

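Liver RNA of 10 A226Y and 8 WT mice was sequenced as short single-end reads, 1 library per mouse. The authors deposited whole-number read counts per Ensembl gene, which were not normalized. The submitters' processing notes list bcl2fastq, MultiQC, fastp, STAR, featureCounts and GRCm38, whereas the paper's methods describe RSEM and an earlier build, so how a read in 2 genes was counted is not certain. Groups came from the genotype labels. Symbols, positions and lengths came from GENCODE M21 (GRCm38), which matched 22214 of the 22524 identifiers.

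The test took the 13353 genes that reached 10 counts in 50% or more of either genotype's mice, and used the quasi-likelihood test of edgeR 4.0.16 (R 4.3.3) on TMM-scaled libraries without covariates, with Benjamini-Hochberg adjustment over all tested genes. The SE was the log2 fold change divided by the square root of F. Correlations used log2 CPM with a prior count of 2. Single values were compared with two-sided exact permutation tests over all 43758 divisions of the mice. No 2 libraries of 1 genotype were alike within sampling noise (lowest chi-square per degree of freedom 19.2). The procedures were tested on simulated data. Genes named are the 8 subunits, *Cct6b* and *Rps2*, from each partner list the called genes (at most 4) or else those with the smallest p, and the 10 genes most like the subunits' mean. *Actb*, *Hsf1*, *Bbs10*, *Clec4f*, *Marco*, *Col1a1*, *Col3a1*, *Psph* and the hepatocyte markers were named after their values were seen. The subunits and lists were chosen with earlier results of these data known. Alternatives were other scalings and filters, DESeq2 1.42.0, limma-voom 3.58.1, surrogate variables (sva 3.50.0), offsets for length or GC content, another length measure, and leaving out each mouse. Markers of endothelial, stellate, bile duct, erythroid and dividing cells were also summed, and their r with the subunits' mean was −0.06, 0.28, −0.29, −0.43 and −0.41.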

Additional observations from a re-analysis of the deposited data

Results flagged for a closer look

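*Cct7* in A226Y mouse 7 was at 126 CPM, and the next highest of the 10 A226Y mice was at 105 CPM, a gap that passes Dixon's test for a single far value. Of the 16 groups looked at, being each of the 8 subunits in each genotype, this was the 1 found, and chance alone gives about 1 in 20. The same mouse had the highest *Cct6a* (130 CPM), *Cct2* (144 CPM) and *Cct3* (98.9 CPM) of all 18 mice.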

How the results depend on the processing

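The count of called subunits, 2 as reported, was 1 with library size only or with a GC offset, 0 without the filter on low counts, 0 with surrogate variables, and between 0 and 3 with 1 mouse left out. The identity of the called genes varied: with a length offset *Cct2*, *Cct3* and *Cct6a* passed and *Cct4* did not. Surrogate variables also lowered the called genes of the partner lists from 4 to 0, and over all genes the calls from 1910 to 50, while DESeq2 gave 2418. Leaving out 1 mouse moved them from 1255 (633 higher and 622 lower, without WT mouse 14) to 2560 (without A226Y mouse 29). With library size only, 1399 genes were called higher and 660 lower. The ratio of the highest to the lowest subunit per length, 3.95, was 2.07 with the longest transcript. The log2 fold change changed sign with surrogate variables for *Cct5* (−0.03) and *Cct7* (−0.03), and with a GC offset for *Tcp1* (−0.01). With 1 mouse left out it ran from −0.02 to 0.05 for *Tcp1*, and the proportions of *Cct5* and *Cct7* each ran from −0.02 to 0.01. The causes were not tested. The median log2 fold change of the subunits, 0.09 as reported, was 0.02 with surrogate variables, 0.14 with a length offset and between 0.07 and 0.13 under the other alternatives run. The median correlation ran from 0.48 to 0.66. No paired analysis was possible because the genotypes share no replicate numbers. Depth did not limit these genes, whose lowest count was 1808.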
